A study of Mus musculus with 6 samples.

Results

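The cytosolic ribosomal protein genes encode the proteins of the large (Rpl) and small (Rps) subunits of the ribosome that translates nuclear-encoded mRNA. Members were all gene symbols of the count table built from Rpl or Rps and a subunit number, with the usual endings a, x, l and 1, together with the stalk genes Rplp0 to Rplp2 and Rpsa, provided that each of the 4 libraries of that table held 10 or more counts, and symbols with the pseudogene ending -ps were left out. Of the 35602 genes in the table, 85 symbols matched and 83 passed the count minimum, 51 of them of the large and 32 of the small subunit. The count minimum is an abundance limit and used no difference between the groups.

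The study asked what the MAPK13 inhibitor MAPK13-IN-1 changes in the transcriptome of activated mouse T cells. Splenic CD4+ T cells were purified, activated through CD3 and CD28 and cultured with MAPK13-IN-1 or with its solvent DMSO, with 3 libraries per group and a 72 h culture per the series design. Replicates 2 and 3 of each group were wild-type (WT), were made from poly-T selected mRNA and form the count table, and their inhibitor dose was 17.1 µM. Replicate 1 of each group came from another, stranded library kit and is given in separate tables, with no genotype or dose in its labels.

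The DMSO control shares the spleen source, the activation and the medium with the inhibitor group. The labels' protocol for replicates 2 and 3 puts inhibitor or DMSO into the medium after day 1, whereas the series design describes the whole 72 h as treated. Which mouse strain, age and sex gave these T cells, and how many animals stand behind a library, is not given in the sources used here. Nothing in the labels says that the replicates came from separate animals or cultures, so p-values here measure only the spread between these libraries, which may be technical. DMSO replicates 2 and 3 held 26874805 and 28487403 counts, and MAPK13-IN-1 replicates 2 and 3 held 33854760 and 32617702 counts. Levels from the count table are counts per 1000000 counts (CPM) after scaling by the trimmed mean of M values (TMM), whose factors were 0.960 and 0.955 in DMSO and 1.05 and 1.04 with inhibitor. Levels from the replicate 1 pair are FPKM, a unit inferred from the values, and carry no test because there was 1 library per group.

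The labelled cell type was checked first. Of 10 CD4 T cell markers, 9 were listed, and together they reached 1811 and 1850.3 CPM in DMSO against 1009 and 1131 CPM with inhibitor. Cd4 itself stood at 275 and 276 CPM in DMSO replicates 2 and 3 and 267 and 283 CPM in the corresponding MAPK13-IN-1 libraries. Cd5 was on average the most abundant of these markers in the count table. In the replicate 1 pair the same markers summed to 1282 FPKM in DMSO and 1149 FPKM with inhibitor. T cell markers were thus present in every library, and 7 of 9 were lower and 1 was higher with inhibitor in replicates 2 and 3, of which Lck had the smallest p (346 and 363 CPM in DMSO, 148 and 161 CPM with inhibitor).

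B cell markers were also abundant in the count table. The 11 listed of 12 B cell markers summed to 1169 and 1147 CPM in DMSO and to 1350.0 and 1375 CPM with inhibitor, with Pax5 on average the most abundant, 8 higher and 2 lower of 11 tested. In the replicate 1 pair they summed to 53.7 and 37.2 FPKM, lower with inhibitor. The 8 erythroid markers, led by Hbb-bs, rose from 8.38 and 8.16 CPM in DMSO to 92.1 and 66.5 CPM with inhibitor, with 6 of 7 tested higher. The 9 macrophage markers, led by Cd68, summed to 13.3 and 11.5 CPM in DMSO and 41.5 and 34.3 CPM with inhibitor, with 5 of 6 tested higher. Both CD8 T cell markers were lower, at a sum of 11.7 and 10.9 CPM in DMSO and 5.49 and 7.85 CPM with inhibitor, with Cd8b1 the more abundant. In replicate 1 both ran the other way, with a sum of 3.49 FPKM in DMSO and 8.39 FPKM with inhibitor. The other sums in replicate 1 were 0.935 and 1.96 FPKM for erythroid, 3.00 and 9.18 FPKM for macrophage, 0.695 and 0.336 FPKM for neutrophil and 0.0909 and 0.173 FPKM for NK cell markers, DMSO first. The 6 neutrophil markers reached at most 0.443 CPM in sum, with Ly6g the highest and S100a9 at 0 in all 4 libraries, and the 4 NK cell markers at most 0.507 CPM, with Klrb1c the highest and Klra8 at 0. The part that these other cells play in the ribosomal protein values was not tested, and in such bulk samples fewer cells of a type and less RNA per cell cannot be told apart.

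Ribosomal protein mRNAs are among the most abundant transcripts of any growing cell, and T cells raise ribosome production when they leave quiescence. Most of these mRNAs begin with a C followed by a run of pyrimidines, the 5′ terminal oligopyrimidine (TOP) motif, through which mTORC1 and its effector Larp1 tune their translation and stability. Because ribosomal proteins are needed in equal amounts, their genes are commonly read as a block, although a few have paralogs or functions away from the ribosome.

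The ribosomal protein genes took up a smaller share of the transcriptome with inhibitor. Their share of all counts was 14.0% in DMSO replicate 2 and 14.2% in DMSO replicate 3. It was 12.9% in MAPK13-IN-1 replicate 2 and 13.1% in MAPK13-IN-1 replicate 3. The groups did not overlap, and the mean share moved from 14.1% ± 0.177 (SD, n = 2) to 13.0% ± 0.166 (SD, n = 2), a difference of -1.10 percentage points. An exact two-sided permutation test of 2 against 2 libraries gave p = 0.333, the smallest value this design allows. The 95% Wilson interval of each share was at most 0.0262 percentage points wide, which covers counting error only. Both subunits had lower shares with inhibitor, as the plot of shares by library shows. The large subunit genes went from a mean of 8.39% to 7.84% of counts. The small subunit genes went from 5.70% to 5.15%. In the replicate 1 pair, 82 members were listed, and their share of the summed FPKM was 27.7% in DMSO and 24.9% with inhibitor. That scale divides by gene length, so its level is not comparable with the share of counts, but the direction was the same.

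**Figure D1:**
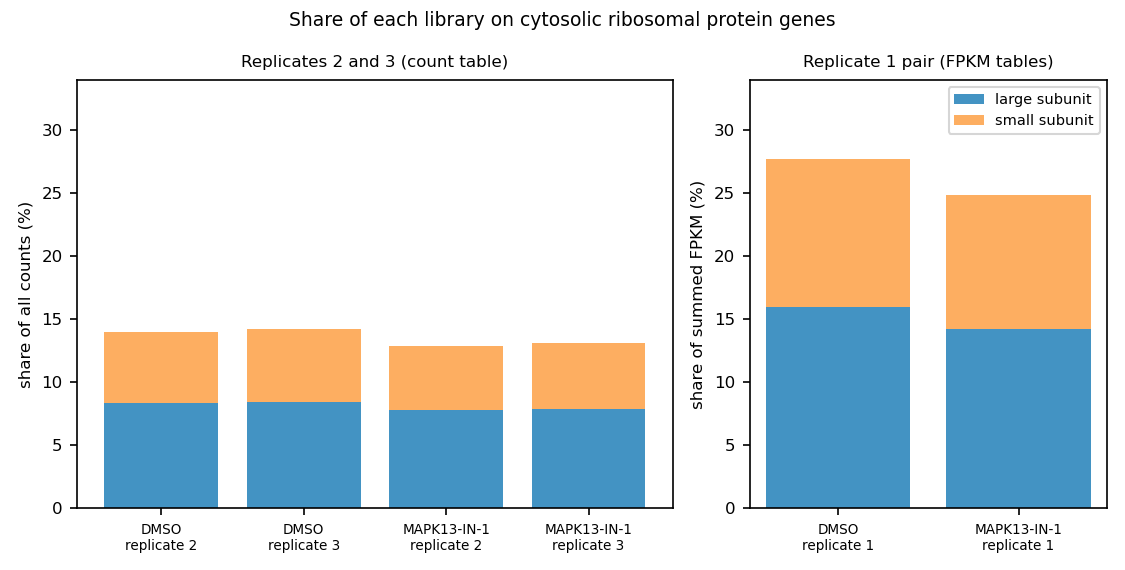
Bars give the share of each library on the cytosolic ribosomal protein genes, in percent of all counts for replicates 2 and 3 (left) and in percent of summed FPKM for the replicate 1 pair (right), with large and small subunit genes stacked. Inhibitor libraries lie below DMSO libraries in both panels, at 12.9% and 13.1% against 14.0% and 14.2% of counts, and at 24.9% against 27.7% of summed FPKM.

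Gene by gene, the members were mostly lower with inhibitor, by small amounts. Of the 83 members, all of which passed the filter on low counts, 60 were lower at an adjusted p under 0.05, and the same was true of 32.3% of the 16269 genes tested (edgeR's quasi-likelihood test, Benjamini-Hochberg adjusted, 2 libraries per group). Another 4 members were higher, against 31.5% of all genes tested, and 19 were not called. The median log2 fold change was -0.22 over the members and 0.01 over all genes tested, and the highest value among the members was 0.24. No member passed an absolute log2 fold change of 1, a size that 24.9% of all genes tested exceeded. Both inhibitor libraries lay below both DMSO libraries for 70 members, compared with 41.4% of all genes tested. They lay above both DMSO libraries for 6 members, compared with 41.7% of all genes tested. The other 7 members, Rpl39l, Rps15a, Rps15, Rps13, Rpl7, Rpl18 and Rpl38, overlapped between the groups.

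The number of calls depended on how the libraries were scaled. Scaling by library totals in place of TMM moved the median of all genes tested from 0.01 to 0.14 and that of the members from -0.22 to -0.09, and a change of scaling cannot alter the gap of 0.23 log2 units between them. That gap was 0.375 without the filter on low counts and 0.170 with at least 10 counts in each library. With library totals 34 members were lower and 9 were higher, against 26.4% and 38.0% of all genes tested in the same fit. Of those 9, Rpl7, Rpl18, Rpl7a, Rpl38 and Rps14 were not called with TMM. The members' median stayed below 0 under TMM, RLE, upper-quartile and library-total scaling. Under each of these scalings, and with TMM factors computed without the members, 34 members were called lower every time, among them Rps12, Rpl22l1, Rpl36a, Rpl12, Rpl28, Rpsa, Rps20 and Rplp1. The 4 members called higher, Rpl41, Rpl22, Rpl24 and Rps3a1, were higher under each of these scalings as well.

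**Figure D2:**
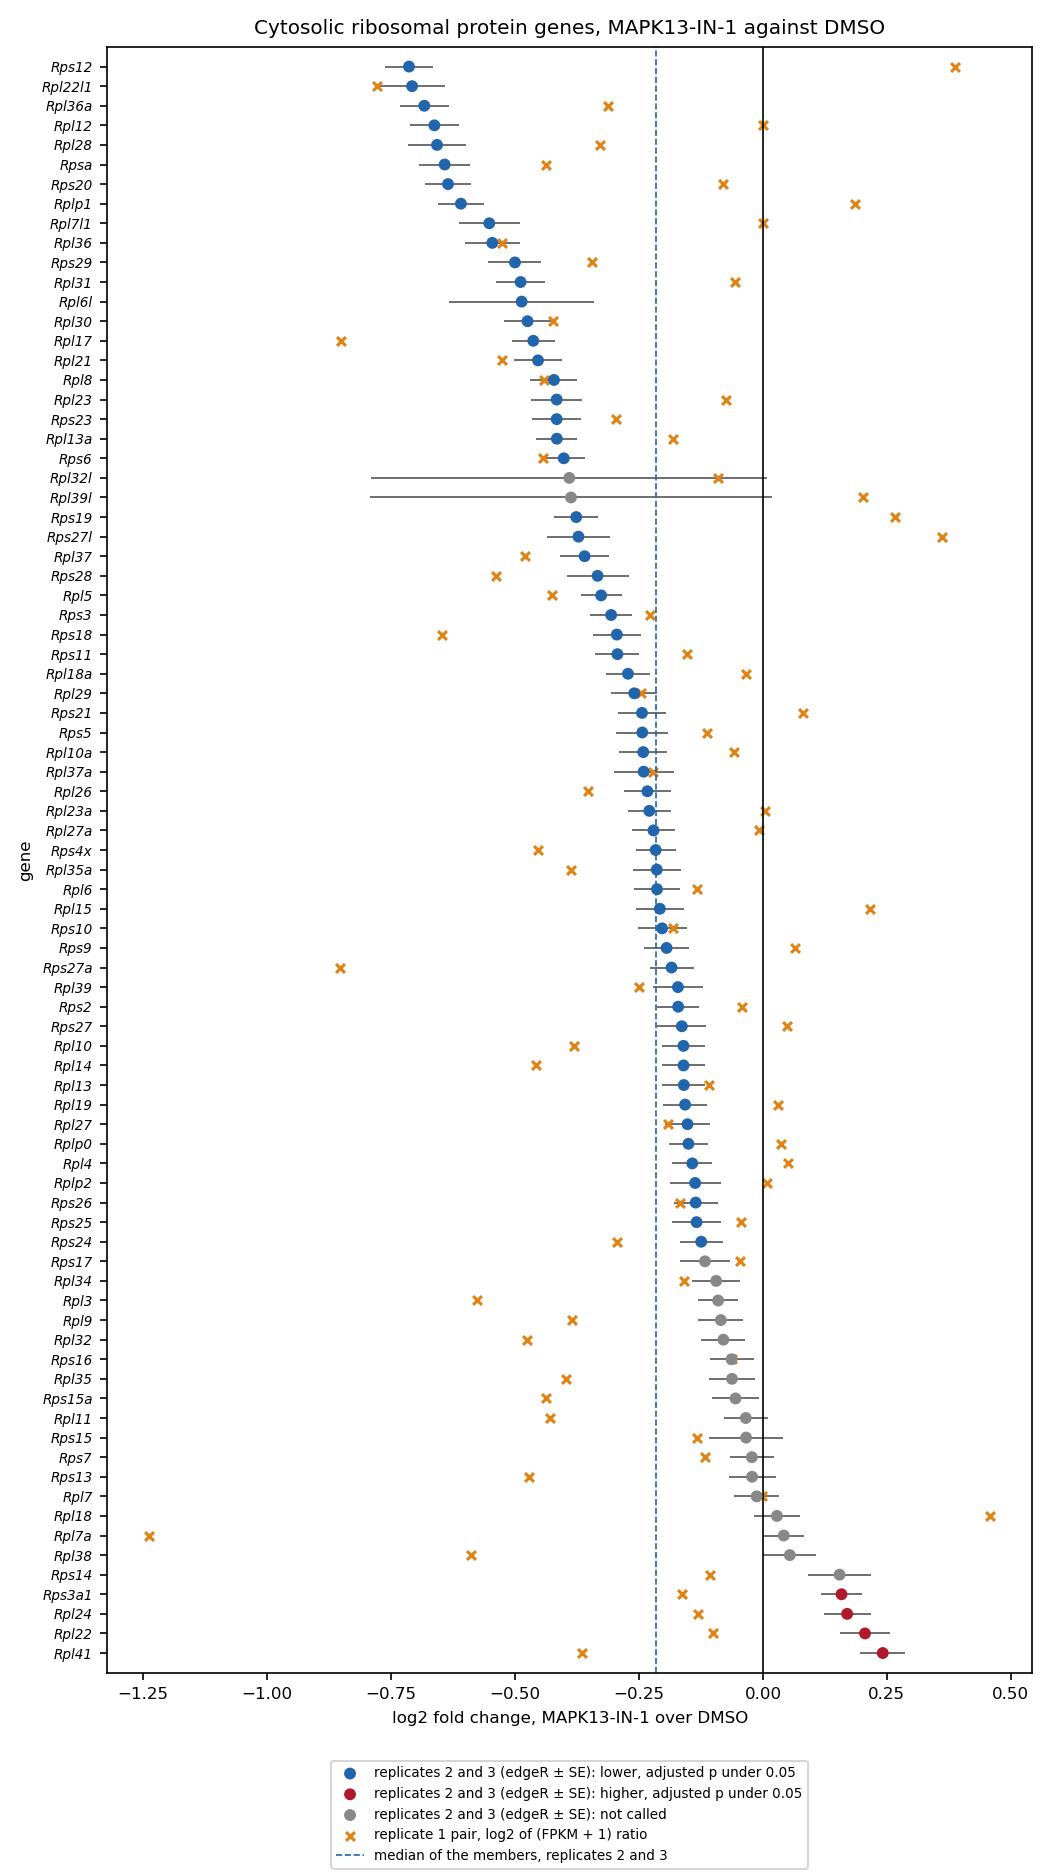
Each row is 1 of 82 members, with the log2 fold change of MAPK13-IN-1 over DMSO in replicates 2 and 3 as a circle with its standard error (edgeR, TMM scaling, 2 libraries per group) and the log2 ratio of (FPKM + 1) in the replicate 1 pair as a cross. Most circles lie left of 0, such as Rpl22l1 at -0.71, and Rpl41 lies furthest right at 0.24, while the crosses scatter from -1.24 to 0.46 without following the order of the circles, and the zero line of the circles shifts by 0.13 when library totals replace TMM.

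In the replicate 1 pair, which entered no test, the members as a whole lay lower too, but not the same members to the same extent. Of the 80 members with at least 1 FPKM in both libraries, 64 had a log2 ratio of (FPKM + 1) below 0, compared with 45.7% of the 10448 genes at that level. The ratio was above 0 for 16 members, compared with 54.3% of those genes. The median ratio over all 82 listed members was -0.17, beside 0.05 over the genes of at least 1 FPKM in both libraries. Of the 60 members lower in replicates 2 and 3, 44 were below 0 in the replicate 1 pair, 15 were above 0 and 1, Rpl6l, was not listed there. All 4 members called higher in replicates 2 and 3 were below 0 in that pair, and no member was above 0 in every pair. Across the 82 members the log2 fold change and the replicate 1 ratio had a Spearman correlation of 0.03, a description across genes, which share libraries and are not independent replicates.

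Single members differed widely between replicates 2 and 3 and the replicate 1 pair. These sets differ in library preparation, unit and processing, and the dose and genotype of replicate 1 are not labelled, so the sources of such differences cannot be told apart. Rpl7a, which takes part in the early assembly of the large subunit, stood at 2139 and 2156 CPM in DMSO replicates 2 and 3 and 2212 and 2209.7 CPM in the corresponding MAPK13-IN-1 libraries. Its replicate 1 values were 674 FPKM in DMSO and 285 FPKM with inhibitor, the lowest ratio of any member (log2 -1.24). With TMM scaling Rpl7a was thus nearly level in replicates 2 and 3, but with library totals it was called higher (log2 fold change 0.17), and in replicate 1 it was far apart. Rps12 went the other way, at 2357 and 2423 CPM in DMSO replicates 2 and 3 and 1406 and 1508 CPM in the corresponding MAPK13-IN-1 libraries but 893 FPKM in DMSO and 1169 FPKM with inhibitor in replicate 1. Rpl18, with 1231 and 1691 FPKM, had the highest replicate 1 ratio (0.46), and its groups overlapped in the count table. Rpl7a, Rps12 and Rpl18 are described here after their values were seen. The 16 symbols of named pseudogenes held at most 0.00546% of the counts of any library.

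Several small subunit genes had large falls. Rps20, whose product sits in the head of the small subunit, stood at 1527 and 1534 CPM in DMSO replicates 2 and 3 and 964 and 1006 CPM in the corresponding MAPK13-IN-1 libraries. The log2 change of Rps20 was -0.64 ± 0.0460 (SE), lower in 2 of 2 inhibitor libraries (adjusted p = 1.2e-06, edgeR's quasi-likelihood test, Benjamini-Hochberg adjusted). In replicate 1 it was nearly level, at 389 and 368 FPKM. Rpsa, at chr9:120127689-120132369 (GENCODE M21, build GRCm38), encodes a protein of the small subunit that is also known as the laminin receptor precursor. Its counts corresponded to 6210.2 and 6294 CPM in DMSO replicates 2 and 3 and 3796 and 4217 CPM in the corresponding MAPK13-IN-1 libraries, with no overlap between the groups. Its log2 fold change was -0.64 ± 0.0514 (SE), with the same direction in both inhibitor libraries (adjusted p = 2.4e-06, edgeR's quasi-likelihood test, Benjamini-Hochberg adjusted), and the replicate 1 values were 1649 and 1217 FPKM. Rps29, a zinc-binding protein near the decoding region, stood at 799 and 865 CPM in DMSO replicates 2 and 3 and 581 and 595 CPM in the corresponding MAPK13-IN-1 libraries. The log2 fold change of Rps29 was -0.50 ± 0.0534 (SE), and replicate 1 went the same way with 1605 and 1264 FPKM. Rps6, the classical substrate of the S6 kinases, was measured at 2680.2 and 2669 CPM in DMSO replicates 2 and 3 and 1996 and 2053 CPM in the corresponding MAPK13-IN-1 libraries. It changed by -0.40 ± 0.0425 (SE) on the log2 scale, lower in 2 of 2 inhibitor libraries (adjusted p = 1.7e-05, edgeR's quasi-likelihood test, Benjamini-Hochberg adjusted), and its replicate 1 values were 1559 and 1146 FPKM. These were mRNA levels, and the phosphorylation of the S6 protein was not measured.

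Among large subunit genes, Rpl36a and Rpl28 fell most of the members that are not paralog copies and that kept their direction in all 3 replicate numbers. Rpl36a, on chromosome X at chrX:134585654-134588062, stood at 714 and 731 CPM in DMSO replicates 2 and 3 and 442 and 458 CPM in the corresponding MAPK13-IN-1 libraries. Its log2 fold change was -0.68 ± 0.0493 (SE), lower in both inhibitor libraries (adjusted p = 1.2e-06, edgeR's quasi-likelihood test, Benjamini-Hochberg adjusted), and replicate 1 gave 1149.8 and 925 FPKM. Rpl28 was at 1429 and 1507 CPM in DMSO replicates 2 and 3 and 879 and 982 CPM in the corresponding MAPK13-IN-1 libraries, a log2 fold change of -0.66 ± 0.0590 (SE). Its inhibitor libraries were both below its DMSO libraries, and replicate 1 had the same direction with 2555 and 2034 FPKM. Rpl36 stood at 1123 and 1184 CPM in DMSO replicates 2 and 3 and 755 and 825 CPM in the corresponding MAPK13-IN-1 libraries. The log2 fold change of Rpl36 was -0.55 ± 0.0556 (SE), and replicate 1 gave nearly the same log2 ratio, -0.53, from 1444 and 1002 FPKM. Rpl12, a protein at the base of the stalk, was chosen after its values were seen. It stood at 2475 and 2536 CPM in DMSO replicates 2 and 3 and 1521 and 1644 CPM in the corresponding MAPK13-IN-1 libraries, yet replicate 1 had 1339 and 1339.6 FPKM, a log2 ratio of 0.00.

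The members that rose did so by less than the larger falls. Rpl41 encodes a very short, basic peptide of the large subunit and had the highest mean FPKM of all members. It stood at 1657 and 1705 CPM in DMSO replicates 2 and 3 and 1942 and 2033 CPM in the corresponding MAPK13-IN-1 libraries. Both inhibitor libraries were higher, with a log2 fold change of 0.24 ± 0.0457 (SE; adjusted p = 9.4e-04, edgeR's quasi-likelihood test, Benjamini-Hochberg adjusted). Rpl41 was the only member called higher in every alternative fit, yet its replicate 1 values, 3709 FPKM in DMSO and 2880.0 FPKM with inhibitor, ran the other way. Rpl24 stood at 882 and 903 CPM in DMSO replicates 2 and 3 and 1024 and 984 CPM in the corresponding MAPK13-IN-1 libraries. Rps3a1 stood at 2110.5 and 2113 CPM in DMSO replicates 2 and 3 and 2374 and 2339.7 CPM in the corresponding MAPK13-IN-1 libraries. Their log2 fold changes were 0.17 ± 0.0474 (SE) and 0.16 ± 0.0419 (SE), and in replicate 1 both were lower with inhibitor, Rpl24 at 1211 and 1106 FPKM and Rps3a1 at 1957 and 1748 FPKM. Rpl24 and Rps3a1 are described after their values were seen, as no member was higher in all 3 replicate numbers.

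Compared per length, the 5 members with the highest mean FPKM in replicate 1 were Rpl41, Rplp1, Rplp0, Rpl13a and Rpl28. Rpl13a, a large subunit protein known for a role in translational silencing after interferon gamma, held 2586 FPKM in DMSO and 2280.3 FPKM with inhibitor. In the count table Rpl13a stood at 4154 and 4266 CPM in DMSO replicates 2 and 3 and 3128 and 3184 CPM in the corresponding MAPK13-IN-1 libraries, and it was lower in both inhibitor libraries with a log2 fold change of -0.42 ± 0.0411 (SE). Of the 50 genes with the most counts, 31 were members in each DMSO library, and 28 and 29 were members in MAPK13-IN-1 replicates 2 and 3. The median member had 1361 FPKM in DMSO replicate 1 and 1151 FPKM in MAPK13-IN-1 replicate 1. Per kilobase of exon, mean DMSO levels from the count table and DMSO replicate 1 FPKM had a Spearman correlation of 0.605 across 82 members, a description only.

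The acidic stalk of the large subunit, which recruits elongation factors, is formed by Rplp0 with dimers of Rplp1 and Rplp2. All 3 stalk genes were lower with inhibitor, by different amounts. Rplp1 stood at 2557 and 2665 CPM in DMSO replicates 2 and 3 and 1668 and 1755 CPM in the corresponding MAPK13-IN-1 libraries, a log2 fold change of -0.61 ± 0.0468 (SE), lower in 2 of 2 inhibitor libraries (adjusted p = 1.8e-06, edgeR's quasi-likelihood test, Benjamini-Hochberg adjusted). Its partner Rplp2 stood at 1365 and 1459 CPM in DMSO replicates 2 and 3 and 1248 and 1320.1 CPM in the corresponding MAPK13-IN-1 libraries. The difference for Rplp2 was -0.14 ± 0.0516 (SE) and was not called with RLE, upper-quartile or library-total scaling, a minimum of 10 counts, DESeq2 or without DMSO replicate 3. Rplp0, often used as a reference gene, stood at 7014 and 7181 CPM in DMSO replicates 2 and 3 and 6361 and 6429 CPM in the corresponding MAPK13-IN-1 libraries. The log2 change of Rplp0 was -0.15 ± 0.0385 (SE), and it was not called with upper-quartile or library-total scaling or without DMSO replicate 3. In replicate 1 none of the 3 was lower with inhibitor, with log2 ratios of 0.19 for Rplp1, 0.01 for Rplp2 and 0.04 for Rplp0. Of these genes, Rplp1 alone was called lower in every alternative fit.

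Rpl5 and Rpl11 join 5S rRNA in a particle that, when free, binds Mdm2 and so ties ribosome assembly to p53. The pair did not move alike in the count table. Rpl5 stood at 2882 and 2885 CPM in DMSO replicates 2 and 3 and 2287 and 2313 CPM in the corresponding MAPK13-IN-1 libraries. The log2 change of Rpl5 was -0.33 ± 0.0413 (SE), lower in 2 of 2 inhibitor libraries (adjusted p = 5.9e-05, edgeR's quasi-likelihood test, Benjamini-Hochberg adjusted). Rpl11 stood at 1369 and 1377 CPM in DMSO replicates 2 and 3 and 1331 and 1349.8 CPM in the corresponding MAPK13-IN-1 libraries, with a log2 fold change of -0.03 ± 0.0438 (SE) that was not called. The difference between them was not tested. In replicate 1 both were lower, Rpl5 at 995 and 741 FPKM and Rpl11 at 1214 and 901 FPKM.

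Some ribosomal proteins are made from genes whose symbols do not follow the naming pattern, or as fusions with ubiquitin that are cleaved after translation. Rps27a, the ubiquitin fusion of the small subunit and a member by its symbol, stood at 1166 and 1172 CPM in DMSO replicates 2 and 3 and 1026 and 1033 CPM in the corresponding MAPK13-IN-1 libraries. The change was -0.18 ± 0.0445 (SE) on the log2 scale, a call that was lost with upper-quartile or library-total scaling and without DMSO replicate 3. Its replicate 1 values were further apart, at 1246 and 689 FPKM. Fau, which encodes a small subunit protein fused to a ubiquitin-like domain, stood at 1778 and 1868 CPM in DMSO replicates 2 and 3 and 1672 and 1744 CPM in the corresponding MAPK13-IN-1 libraries and was not called (-0.09 ± 0.0473, SE). Rack1, a scaffold protein on the head of the small subunit, stood at 4583 and 4719 CPM in DMSO replicates 2 and 3 and 2771 and 3227 CPM in the corresponding MAPK13-IN-1 libraries. Rack1 fell by 0.63 ± 0.0634 (SE) on the log2 scale in 2 of 2 inhibitor libraries (adjusted p = 1.1e-05, edgeR's quasi-likelihood test, Benjamini-Hochberg adjusted), and replicate 1 gave 1732 and 1367 FPKM.

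Paralogs, second genes that encode a variant of a ribosomal protein, were read against their partner within each library, a ratio that does not depend on scaling. Rpl22l1, at chr3:28805436-28807424, and Rpl22, at chr4:152325742-152334071, encode related RNA-binding proteins of the large subunit, and Rpl22 is known to restrain Rpl22l1. Rpl22l1 stood at 239 and 227 CPM in DMSO replicates 2 and 3 and 150.2 and 135 CPM in the corresponding MAPK13-IN-1 libraries. Rpl22 stood at 523 and 526 CPM in DMSO replicates 2 and 3 and 620.0 and 591 CPM in the corresponding MAPK13-IN-1 libraries. The paralog was lower and its partner higher in both inhibitor libraries, with log2 fold changes of -0.71 ± 0.0656 (SE; adjusted p = 6.6e-06) and 0.21 ± 0.0499 (SE; adjusted p = 0.00436) in edgeR's quasi-likelihood test, Benjamini-Hochberg adjusted. Rpl22 lost its call without either DMSO library. Rpl22l1 made up 31.3% and 30.1% of the counts of the pair in DMSO and 19.5% and 18.6% with inhibitor, with no overlap. By FPKM in replicate 1 its share of the pair was 72.2% in DMSO and 61.8% with inhibitor, a higher level on a scale that divides by length and the same direction.

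Rpl36al, at chr12:69182731-69184083, is a paralog of the X-linked Rpl36a and is not matched by the naming pattern. Rpl36al stood at 226 and 228 CPM in DMSO replicates 2 and 3 and 235 and 234 CPM in the corresponding MAPK13-IN-1 libraries, and its log2 fold change of 0.05 ± 0.0522 (SE) was called only with library-total scaling. Rpl36a fell, and the share of Rpl36al in the counts of the pair went from 24.1% and 23.8% in DMSO to 34.7% and 33.8% with inhibitor. In replicate 1 the share was 27.4% and 26.7%, so the shift was not seen there.

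Rpl7l1, a nucleolar paralog of Rpl7 involved in large subunit assembly, stood at 107 and 109 CPM in DMSO replicates 2 and 3 and 74.4 and 73.1 CPM in the corresponding MAPK13-IN-1 libraries. It fell by 0.55 ± 0.0613 (SE) on the log2 scale in 2 of 2 inhibitor libraries (adjusted p = 2.4e-05, edgeR's quasi-likelihood test, Benjamini-Hochberg adjusted). Rpl7 stood at 1978 and 1938 CPM in DMSO replicates 2 and 3 and 1989.6 and 1892 CPM in the corresponding MAPK13-IN-1 libraries and was not called with TMM, but was called higher with library totals (log2 fold change 0.11). The share of Rpl7l1 in the pair was 5.13% and 5.34% in DMSO and 3.61% and 3.72% with inhibitor, and in replicate 1 it was 2.08% in both libraries. Rps27l, a paralog of Rps27 known as a p53 target, made up 9.69% and 9.28% of the counts of its pair in DMSO and 8.18% and 8.45% with inhibitor. Both genes were lower, Rps27l with a log2 fold change of -0.37 ± 0.0644 (SE) and Rps27 with -0.16 ± 0.0493 (SE), a call that Rps27 lost with upper-quartile or library-total scaling, a minimum of 10 counts or without DMSO replicate 3. In replicate 1 the Rps27l share went up instead, from 11.9% to 14.3%. An exact permutation test of these shares over 2 against 2 libraries cannot go below p = 0.333.

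**Figure D3:**
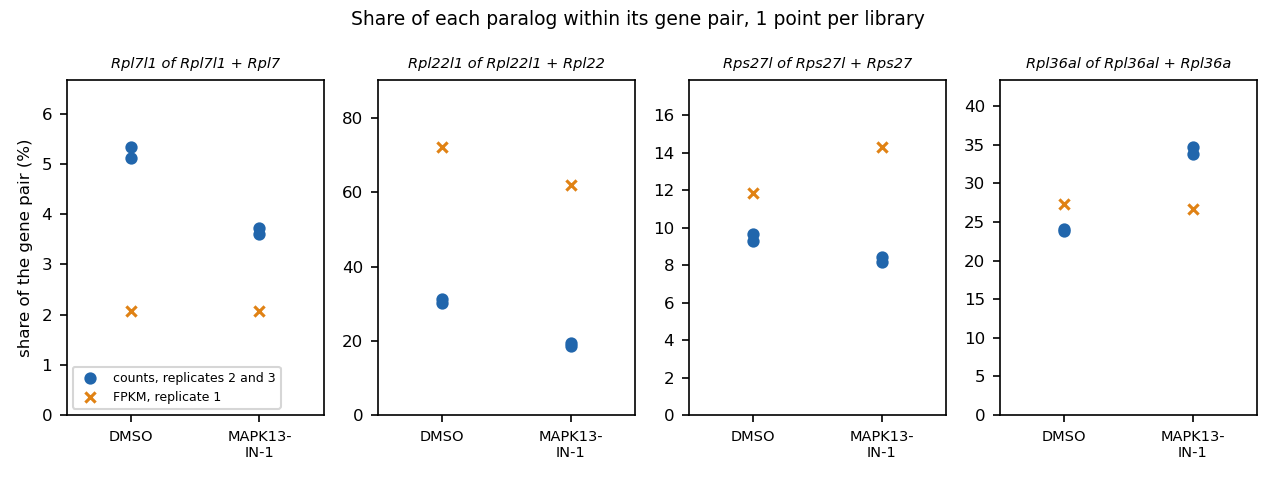
Each panel gives the share of a paralog in the sum of the paralog and its partner, in percent, with 1 circle per library of the count table (replicates 2 and 3) and 1 cross per library of the replicate 1 pair (FPKM). With inhibitor the circles of Rpl7l1, Rpl22l1 and Rps27l lie lower and those of Rpl36al lie higher, and of the crosses only that of Rpl22l1 moves clearly in the direction of its circles.

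The remaining paralogs, and the members nearest the count minimum, were scarce. Rpl39l lay just inside the count minimum, with 19 and 30 counts in DMSO and 31 and 18 counts with inhibitor, against 17150 to 21814 counts for Rpl39. Rpl32l, listed as a processed pseudogene and not read as a paralog here, also lay just inside, with 26 and 17 counts in DMSO and 22 and 21 counts with inhibitor. Neither was called, and their SE of 0.41 and 0.40 on the log2 scale was the widest of the members. Rpl3l lay just outside the minimum, with 3 and 5 counts in DMSO and 10 and 6 counts with inhibitor, and its partner Rpl3, at 3731 and 3748 CPM in DMSO replicates 2 and 3 and 3494 and 3531 CPM in the corresponding MAPK13-IN-1 libraries, was not called. Rpl10l, a paralog of the X-linked Rpl10 used in male germ cells, had 0 counts in all 4 libraries, which allows at most 0.112 counts per 1000000 unscaled counts (3 counts of the smallest library). Rpl10 stood at 1874 and 1880.2 CPM in DMSO replicates 2 and 3 and 1682 and 1677 CPM in the corresponding MAPK13-IN-1 libraries. The log2 change of Rpl10 was -0.16 ± 0.0425 (SE), not called with upper-quartile or library-total scaling or without either DMSO library. Rpl39, with -0.17 ± 0.0502 (SE), lost its call with upper-quartile or library-total scaling and without DMSO replicate 3. Rps4x, at 3336 and 3323 CPM in DMSO replicates 2 and 3 and 2881 and 2851 CPM in the corresponding MAPK13-IN-1 libraries, fell by 0.22 ± 0.0406 (SE) and lost its call with library-total scaling, and its paralog Rps4l was not analysed here.

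On the log2 scale most members varied little between replicates of one group, though by more than sampling noise. The exceptions in DMSO given here were chosen after their values were seen. Rps15, a protein of the small subunit head, stood at 1561 and 1862 CPM in DMSO replicates 2 and 3 and 1608 and 1735 CPM in the corresponding MAPK13-IN-1 libraries. Rps14, another small subunit gene, stood at 1951 and 2259.7 CPM in DMSO replicates 2 and 3 and 2317 and 2369.8 CPM in the corresponding MAPK13-IN-1 libraries. In both, DMSO replicate 3 was well above DMSO replicate 2 while the inhibitor libraries were closer together, and neither was called with TMM. Rps14 had a log2 fold change of 0.15 ± 0.0629 (SE; adjusted p = 0.0518, edgeR's quasi-likelihood test, Benjamini-Hochberg adjusted), above both DMSO libraries in 2 of 2 inhibitor libraries. It was called higher with library totals (log2 fold change 0.28), and its replicate 1 values ran the other way, at 1789.9 FPKM in DMSO and 1663 FPKM with inhibitor. The median SE was 0.05 over the members and 0.12 over all genes tested.

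What the members share beyond their symbol was described next. GENCODE M21 lists all 83, of which 81 are protein coding and 2, Rpl6l and Rpl32l, are processed pseudogenes despite their symbols. Rpl6l, chosen after its values were seen, had 411 and 512 counts in DMSO and 380 and 479 counts with inhibitor. The members lie on 19 chromosomes. A small nucleolar RNA (snoRNA) gene lay inside 30 members on the same strand, and the median log2 fold change was -0.25 over these and -0.21 over the 53 without one. Of the 30, 24 were lower and 1 was higher, and of the 53, 36 were lower and 3 were higher. The median was -0.22 over the 51 large subunit genes and -0.21 over the 32 small subunit genes. Neither exon length (Spearman correlation 0.04 across 83 members) nor mean DMSO level (0.01 across 83 members) followed the log2 fold change, as a description across genes.

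Because the TOP motif marks this gene family, the annotated starts were read in RefSeq promoters (build GRCm38.p6, 250 bases before to 50 bases after the start), where 62 of the 83 members matched by symbol. A pyrimidine tract, here a C followed by at least 5 more C or T, beginning from 10 bases before to 20 bases after an annotated start on the transcribed strand, was found in 38 of 62 members (61.3%) and in 28.0% of all 27025 genes with a promoter, or 29.2% of the 12606 of them that were tested. It was present in 28 of the 44 matched members that were lower and in 10 of the 18 others. The median log2 fold change was -0.21 over the 38 with a tract and -0.16 over the 24 without. The letters CCGGAAG, on either strand of the 300 bases, were found in 26 of 62 members (41.9%) and in 9.93% of all promoters and 17.8% of those of tested genes. AAGATGGC, which can overlap the end of CCGGAAG, was found on either strand in 6 of 62 members (9.68%) and in 3.19% of all promoters and 4.77% of those of tested genes. CACGTG, a palindrome, was found in 6 of 62 members (9.68%) and in 8.09% of all promoters and 10.8% of those of tested genes, so it was not more common in members than in tested genes. A gene with several starts counted if any of them matched, and a match describes letters only.

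The starts of the 3 largest falls among members with an entry and of the 3 largest rises are shown so that the tract can be read, 20 bases before the start and 20 bases from it on, 5′ to 3′ on the transcribed strand, with the tract in capitals. Rps12 and Rpl24 were chosen after their values were seen. Rps12 lies at chr10:23787190-23787229 (minus strand), Rpl22l1 at chr3:28805488-28805527 (plus strand), Rpl36a at chrX:134585634-134585673 (plus strand), Rpl41 at chr10:128549149-128549188 (minus strand), Rpl24 at chr16:55966255-55966294 (plus strand) and 1 of the 2 listed Rpl22 starts at chr4:152325706-152325745 (plus strand).
Rps12: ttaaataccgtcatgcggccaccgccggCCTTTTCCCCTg
Rpl22l1: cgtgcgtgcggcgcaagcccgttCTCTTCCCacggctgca
Rpl36a: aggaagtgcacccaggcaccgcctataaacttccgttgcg
Rpl41: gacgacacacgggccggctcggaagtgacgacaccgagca
Rpl24: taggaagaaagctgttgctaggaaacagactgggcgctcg
Rpl22: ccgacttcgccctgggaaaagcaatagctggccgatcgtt
A tract by this rule was found at the starts of Rps12 and Rpl22l1 and at none of the starts of Rpl36a, Rpl41, Rpl24 and Rpl22. Over all matched members the tract was nearly as common among those that were not lower, at 55.6% against 63.6%.

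Further lists were read beside all genes tested, of which 32.3% were lower and 31.5% higher with a median of 0.01, and beside the genes of at least 1 FPKM in replicate 1, of which 45.7% were below 0 with a median ratio of 0.05. Of 21 genes listed for TOP transcripts outside the ribosome, 9 were lower and 7 were higher, with a median log2 fold change of -0.01. In replicate 1, 16 of 21 were below 0 with a median of -0.25, compared with -0.17 over the ribosomal protein genes. Gas5, Snhg1, Snhg5 and Snhg8 of this list are annotated as processed transcripts, not as protein coding. Their replicate 1 ratios, -0.92, -0.85, -1.25 and -0.93, were the lowest of the list. The list lay below all genes in replicate 1 but not in replicates 2 and 3. Its lower median than that of the members there rests in part on these noncoding entries. Eef2, the translocation factor of elongation, had the smallest p of the list and stood at 16249 and 16501 CPM in DMSO replicates 2 and 3 and 8488 and 9808 CPM in the corresponding MAPK13-IN-1 libraries. Its log2 fold change was -0.84 ± 0.0586 (SE; replicate 1 -0.65), and that of Eef1a1, which delivers aminoacyl-tRNA, was -0.52 ± 0.0381 (SE; replicate 1 -0.13). Tpt1, with -0.43 ± 0.0413 (SE; replicate 1 0.09), was lower in replicates 2 and 3 but not in replicate 1. Of 11 regulators of TOP mRNAs, 7 were lower and 0 were higher in edgeR's quasi-likelihood test, with a median of -0.34, and in replicate 1, 7 of 11 were below 0 with a median of -0.13. Larp1, which binds the TOP motif, stood at 501 and 515 CPM in DMSO replicates 2 and 3 and 296 and 278 CPM in the corresponding MAPK13-IN-1 libraries, a log2 fold change of -0.82 ± 0.0543 (SE; replicate 1 -0.26). Mtor itself had -1.09 ± 0.0724 (SE; replicate 1 -0.07) and was nearly level in replicate 1, at 10.8 and 10.3 FPKM. Mlst8, a subunit of its complexes, had -0.86 ± 0.113 (SE; replicate 1 -0.19).

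The list of transcription factors known or named for ribosomal protein promoters also held Tcf7, the factor of the study. Of its 10 tested genes 5 were lower and 3, Max, Yy1 and Tcf7, were higher, with a median of -0.21, and in replicate 1, 6 of 10 were below 0 with a median of -0.08. Myc stood at 265 and 295 CPM in DMSO replicates 2 and 3 and 132 and 147 CPM in the corresponding MAPK13-IN-1 libraries, lower in 2 of 2 inhibitor libraries, whereas replicate 1 had 55.0 FPKM in DMSO and 73.7 FPKM with inhibitor. Gabpa, whose protein binds the letters CCGGAAG, was lower, with -0.48 ± 0.0666 (SE; replicate 1 -0.49), and Yy1, whose protein binds AAGATGGC, was higher, with 0.44 ± 0.0577 (SE; replicate 1 0.03). Of 11 genes listed as ribosomal protein chaperones, 4 were lower and 4 were higher, near the shares over all genes tested, with a median of -0.04. Not all of these are dedicated to ribosomal proteins, and Nap1l1, among the 4 higher, was also in the list of TOP transcripts. In replicate 1, 10 of 11 were below 0 with a median of -0.30. Aamp was higher, with 0.49 ± 0.0620 (SE; replicate 1 0.69). Rrs1, which loads the 5S particle, was lower, with -0.74 ± 0.102 (SE; replicate 1 -0.44), as was Ltv1, with -0.61 ± 0.0976 (SE; replicate 1 -0.43).

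Of 8 genes of ribosome stress sensing, Rpl5 was lower and Mdm2 and Map3k20 were higher, with a median of -0.09, and in replicate 1, 4 of 8 were below 0 with a median of 0.20. Mdm2 had 0.37 ± 0.0639 (SE; replicate 1 1.73) and Map3k20 had 0.88 ± 0.0819 (SE; replicate 1 0.49). Of 11 kinases of small subunit proteins, 5 were lower and 2 were higher, with a median of -0.18, whereas in replicate 1, 4 of 11 were below 0 with a median of 0.07. Rps6ka2 had the smallest p of these and stood at 2.56 and 2.72 CPM in DMSO replicates 2 and 3 and 9.66 and 10.9 CPM in the corresponding MAPK13-IN-1 libraries. Riok2 was also higher, with 0.62 ± 0.0768 (SE; replicate 1 -0.06), and Rps6ka3 was lower, with -0.37 ± 0.0647 (SE; replicate 1 -0.00), and both were nearly level in replicate 1.

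For orientation, genes of the study itself were read in the same libraries. Mapk13, which encodes the inhibitor's target, had 79 and 74 counts in DMSO and 21 and 51 counts with inhibitor, and 0.191 and 3.28 FPKM in replicate 1. Tcf7 stood at 158 and 164 CPM in DMSO replicates 2 and 3 and 179.8 and 215 CPM in the corresponding MAPK13-IN-1 libraries, and at 59.4 and 73.5 FPKM in replicate 1. Slc7a5, an amino acid transporter, stood at 589.7 and 622 CPM in DMSO replicates 2 and 3 and 129 and 138 CPM in the corresponding MAPK13-IN-1 libraries, a difference far larger than that of any ribosomal protein gene (log2 fold change -2.19 ± 0.0592, SE; replicate 1 -1.75).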

How the data were processed

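Counts per gene of DMSO and MAPK13-IN-1 replicates 2 and 3 were used as the authors deposited them. The submitters' processing notes name fastp 0.21.0, HISAT2 2.1.0, StringTie 2.1.5, DESeq2 1.30.1 and build mm10 for these, and FastQC, HISAT2, mm10 and GRCm38 for replicate 1. FPKM values of the replicate 1 pair, a unit inferred since they were not whole and summed to different totals, were deposited by the authors as separate tables. The annotation and counting options are not given in the sources used here.

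Genes passing filterByExpr (16269) were tested with edgeR 4.0.16 (R 4.3.3, TMM scaling, glmQLFit and glmQLFTest, two-sided) and adjusted by Benjamini-Hochberg over all genes tested. The biological coefficient of variation was 0.0659. The fit was tested on simulated data with known changes. Replicate 1 ratios were log2((FPKM + 1)/(FPKM + 1)), which understates changes of low genes, and were given without a test. The count table and the replicate 1 tables were processed separately, so no test ran across them. Shares of counts were compared as values.

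Replicate libraries differed by more than sampling noise. The mean chi-square per gene was 2.98 in DMSO and 9.65 with inhibitor over all genes tested. Over the 83 members it was 32.1 in DMSO and 46.6 with inhibitor. The medians, DMSO first, were 1.02 and 2.16 over all genes tested and 9.51 and 20.0 over the members. This measure grows with the counts of a gene, so it does not show that members varied more on the log2 scale. Symbols were matched to GENCODE M21 (GRCm38, the same assembly as mm10) for position and exon length, and sequences were taken from RefSeq. Python 3.11.15, pandas 2.3.3 and matplotlib 3.10.9 were used.

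Named genes were the 8 largest falls and up to 8 largest rises among members called and of 1 direction in all 3 replicate numbers (no rise qualified), the 5 members highest by mean FPKM, the stalk, 5S particle, fusion, other-name and paralog genes with their partners, Rps6, Rpsa, members below the count minimum, the 3 genes of smallest p in each further list, and Mapk13, Tcf7 and Slc7a5. The members and lists were chosen with earlier results of these data known. Alternatives were RLE, upper-quartile and library-total scaling, TMM without the members, other filters, DESeq2 1.42.0, a replicate block, leaving out each library, a threshold of 0.01, other member sets, another denominator and other FPKM settings. No counts of replicate 1 were used, and protein sequences were not used here.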

Additional observations from a re-analysis of the deposited data

How the results depend on the processing

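The members' median stayed below 0 and more members were lower than higher under all alternatives run, but counts and sizes moved with the scaling. Upper-quartile scaling gave 45 lower and 7 higher members with a median of -0.14, beside 4633 lower and 5823 higher of all 16269 genes tested. Library totals gave 34 and 9 members with a median of -0.0911, beside 4302 and 6176 of the same genes. A minimum of 10 counts in each library gave a median of -0.17. Leaving out 1 library gave a median of -0.25 to -0.20 over the members, beside 0.003 to 0.035 over all genes tested. The share difference was then -1.22 to -0.97 percentage points. Calls moved in both directions, and fewer members were called higher without either DMSO library. The lone library of a group was then assumed to vary like the pair of the other group. Without the 10 most abundant other genes the share difference was -1.39 percentage points. Rescaling FPKM to a sum of 1000000 moved the replicate 1 median to -0.13. Rpl7, not called with TMM, was higher with library totals (0.11). Fau was called lower without MAPK13-IN-1 replicate 3, and Rpl3 without either MAPK13-IN-1 library or without the filter on low counts. The cause of these shifts was not tested.

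With the replicate number as a replicate block, 61 members were lower and 5 were higher, with a median of -0.22. In the same fit 5384 of all 16269 genes tested were lower and 5261 were higher, with a median of 0.01. Across genes, the deviations of same-numbered libraries were close to uncorrelated (0.00500 across 16269 genes, 0.00484 across the 9125 genes of at least 10 CPM on average). With 2 libraries per group, such a correlation across genes cannot decide whether the numbers pair the samples. Of 780 values of 65 named genes under these alternatives, 735 kept their direction and their side of the threshold, and 10 values of Rpl11, Fau, Rpl3 and Rpl7 changed sign without being called. With 2 libraries per group in the count table and 2 library preparations, effects of the preparation, of the processing and of the replicate number cannot be told apart.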
